A study of Mus musculus with 70 samples.

Results

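ST2- CD44hi regulatory T cells (Tregs) of back skin were compared with ST2- CD44hi Tregs of spleen in 10 bulk RNA-seq libraries, 5 from each tissue, out of 70 libraries in the series. The 10 libraries were taken by their labelled tissue and sorted population, and each had to hold more than 1000000 counts, which all 10 did and 67 of the 70 did. All cells came from 5 male, untreated Foxp3-YFP-cre mice aged 16.6 to 18.6 weeks, which carried the Foxp3tm4(YFP/icre)Ayr allele on a B6.129(Cg) background, and every mouse gave 1 library of each tissue. In this strain a YFP and Cre fusion is expressed from the Foxp3 gene, so that YFP marks cells that transcribe Foxp3, and every group in the series carries this allele. Each of the 10 libraries was made from 220 sorted cells of 1 mouse. The sort kept live single CD45.2+ CD4+ YFP+ cells without CD8 and CD11b, with high CD44 and without surface ST2. Skin was digested with collagenase, whereas spleen was disrupted mechanically, treated to lyse red cells and enriched for CD4+ cells on magnetic columns. The tissue and its preparation therefore cannot be told apart in this comparison. ST2+ CD44hi Tregs of the same tissues and mice, and ST2- CD44hi Tregs of blood, lungs, visceral adipose tissue (VAT) and colon, were used to set the values beside.

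Tregs are CD4+ T cells that depend on the transcription factor FOXP3 and hold back immune responses. CD44 rises when a T cell has met its antigen, and such effector Tregs can leave the circulation and settle in tissues. ST2 is the receptor for the alarmin IL-33, is encoded by Il1rl1 and marks many tissue Tregs, so the ST2- CD44hi cells described here are effector Tregs without that surface marker. In skin, Tregs gather around hair follicles, and they are known for restraining inflammation and for supporting repair and hair growth. In spleen, a lymphoid organ that filters blood, most Tregs recirculate.

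The skin libraries held 1545763 to 2426957 counts and the spleen libraries 2195741 to 2656728, so that 1 CPM (1 count in a library scaled with TMM factors to 1000000 counts) was about 2.2 counts in the median library of the 10. CPM is not divided by gene length, so that it is set side by side only between libraries and not between genes. Column totals were lower in skin (exact two-sided permutation test, p = 0.0317, adjusted p = 0.0423 over 4 library measures), with 15275 ± 976 genes detected in skin and 15255 ± 545 in spleen (SD, n = 5 each, exact p = 0.976). Mitochondrial genes took 0.518% ± 0.0577 of skin counts and 0.393% ± 0.0265 of spleen counts, and the 100 most abundant genes took 10.1% ± 0.752 and 7.50% ± 0.236 (SD, n = 5 each). Both shares gave the smallest exact p that 5 libraries against 5 allow, 0.00794 (adjusted p = 0.0159). These tests ignore that the libraries are paired by mouse. With sign flips within mice, chosen after the data were seen, totals were lower and both shares higher in skin in 5 of 5 mice, at the smallest exact p that 5 pairs allow, 0.0625, so that the paired design cannot reach 0.05. The difference in totals was not called when any one of mice 2 to 5 was left out (exact p = 0.0857 to 0.114). What part these measures play in the values that follow was not tested. In bulk samples, fewer cells of a type and less RNA per cell cannot be told apart.

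Transcripts of the genes behind the sort were checked first. Foxp3 stood at 321, 337, 367, 381 and 334 CPM in skin of mice 1 to 5 and at 126, 162, 118, 151 and 139 CPM in spleen. All skin libraries lay above all spleen libraries (log2 fold change 1.32, SE 0.13, adjusted p = 4.20e-13). Here and throughout, fold changes are skin over spleen, SE is the standard error of the log2 fold change, and adjusted p-values come from the quasi-likelihood test of edgeR, adjusted by the Benjamini-Hochberg method over 13173 protein-coding genes. Cd4 stood at 271 to 455 CPM in skin and 319 to 493 CPM in spleen, and the groups overlapped (log2 fold change -0.22, adjusted p = 0.309). Cd44 was at 885, 1002, 874, 1011 and 926 CPM in skin and 127, 162, 209.6, 214 and 176 CPM in spleen, although both populations had been gated as CD44hi (log2 fold change 2.403, SE 0.20, adjusted p = 5.64e-15).

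Il1rl1, at chr1:40429570-40465415 in GRCm38, is the gene of the surface receptor that these cells lacked. Its level was 23.9, 124, 112, 137 and 195 CPM in skin and 0.374, 0.419, 1.30, 3.32 and 0 CPM in spleen. Thus all 5 libraries sorted as ST2- from skin held Il1rl1 transcripts, above every spleen library (log2 fold change 6.75, SE 0.63, adjusted p = 1.92e-13). ST2+ Tregs held more, 1457 ± 109.5 CPM in skin and 275 ± 34.6 CPM in spleen (SD, n = 5 each). For the RNA-seq sorts, the paper gives purity checks of lungs and spleen and names none for skin. Whether carried-over ST2+ cells gave part of the transcripts in the ST2- skin libraries was not tested.

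Markers of other cell types were counted next, because a skin suspension holds many. Summed over 11 keratinocyte markers, skin libraries of mice 1 to 5 held 626, 111, 1612, 123 and 192 CPM, and spleen libraries 7.48 to 20.7 CPM. Summed over 8 fibroblast markers, they held 307, 584, 172, 927 and 76.8 CPM in skin and 0.829 to 3.16 CPM in spleen. Of the tested markers, 8 of 10 for keratinocytes and 6 of 8 for fibroblasts were higher in skin. Transcripts of both lists were thus counted in every skin library and spread unevenly. Keratinocyte sums were highest in mouse 3 and fibroblast sums in mouse 4. In skin of mouse 2 the keratinocyte sum was led by Sfn (43.8 CPM) and Perp (25.6 CPM). Krt5 was at 0.674 and Krt14 at 5.39 CPM there. Mouse 4 was alike, with Sfn at 53.1, Perp at 32.9, Krt5 at 2.10 and Krt14 at 4.19 CPM. Sfn was also counted in every spleen library, at 2.93 to 4.97 CPM. Of the fibroblast sum in mouse 2, Sparc made up 479 CPM, and the next gene, Dcn, was at 58.0 CPM. Endothelial markers reached 406 CPM in skin of mouse 2 and 23.1 to 68.9 CPM in the other skin libraries, against 155 to 175 CPM in spleen. The spleen sum was nearly all Pecam1, a gene that leukocytes also express, at 155 to 174 CPM, while in skin of mouse 2 Egfl7 was at 101 CPM and Plvap at 94.4 CPM, so that of the 5 markers 2 were higher and 1 was lower in skin. Among markers of gamma-delta T cells, the sum was 326 CPM in skin of mouse 1 and 0 to 29.0 CPM elsewhere in skin, against 1.26 to 15.7 CPM in spleen. Markers of CD8 T and NK cells summed to 183, 27.6, 109, 17.5 and 36.9 CPM in skin and 18.2 to 60.3 CPM in spleen. Dendritic and Langerhans cell genes summed to 405 to 507 CPM in skin and 164 to 232 CPM in spleen. Cd74 made up most of these sums, at 315 to 385 CPM in skin and 156 to 213 CPM in spleen. Itgax and Flt3 reached at most 1.35 CPM in skin. Of 6 tested genes of this list, 3 were higher and 0 lower in skin. Macrophage and monocyte genes summed to 7.04 to 117 CPM in skin and 3.73 to 30.9 CPM in spleen. Mast cell genes summed to 22.6 to 89.6 and 0 to 8.60 CPM, with 6 of the 7 mast cell genes at 0 in all skin libraries. B cell genes were the lower list in skin, at 3.85 to 7.65 CPM against 73.5 to 110.2 CPM, and the 5 neutrophil genes were at 0 in all 10 libraries. Melanocyte genes summed to 9.44 to 83.9 CPM in skin and 5.24 to 16.2 CPM in spleen, and erythroid genes to 0 to 21.7 and 0.374 to 11.7 CPM. The 7 genes that define Tregs summed to 4169 to 6019 CPM in skin and 2693 to 3244 CPM in spleen.

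**Figure D1:**
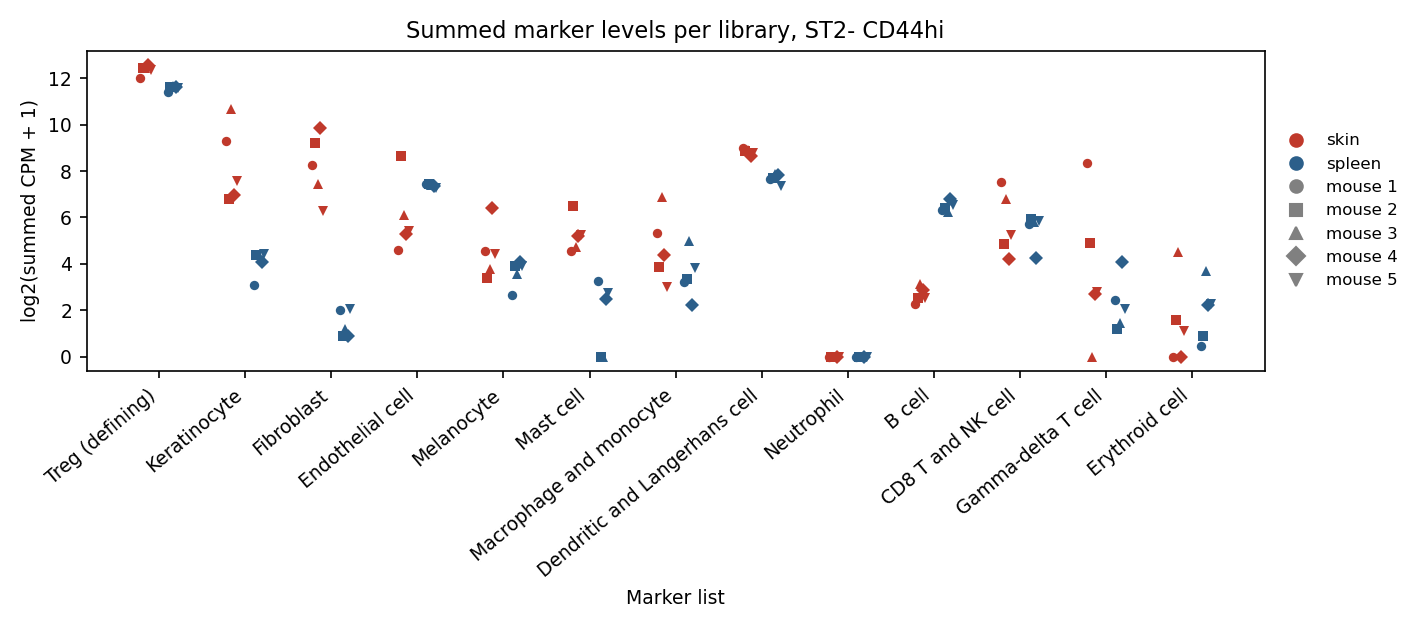
Summed CPM of the 13 marker lists, as log2(sum + 1), in each of the 5 skin and 5 spleen ST2- CD44hi libraries, 1 point per library with the mouse given by the marker shape. Keratinocyte and fibroblast sums are higher in all 5 skin libraries, whereas neutrophil sums are 0 throughout and Treg sums are high in all 10.

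Because single skin libraries carried these sums, counts of genes that the text leads with were also taken without the skin libraries of mice 1 and 3 (highest gamma-delta T cell and keratinocyte sums) and without those of mice 2 and 4 (highest endothelial and fibroblast sums). Both were chosen after the data were seen.

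Skin and spleen ST2- CD44hi Tregs differed widely. Of 13173 protein-coding genes tested, 2202 (16.7%) were higher and 1863 (14.1%) were lower in skin with a fold change of 1.5 or more and an adjusted p of 0.05 or less, together 4065 genes or 30.9%. Without the skin libraries of mice 1 and 3 the number was 3485, and without those of mice 2 and 4 it was 3321. The median log2 fold change was 2.07 among the higher genes, -1.38 among the lower genes and 0 over all genes tested. The 5 skin libraries lay all above the 5 spleen libraries for 13.7% of tested genes and all below them for 13.6%, and 1411 of the higher and 1446 of the lower genes were among these. The higher genes included 541 that had no count in any spleen library, of which 141 averaged at least 10 CPM in skin. Among the lower genes, 101 had no count in any skin library and 20 of these averaged at least 10 CPM in spleen.

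The genes with the smallest adjusted p fell into recognisable kinds. Among the 12 leading genes that were higher in skin were Tnfaip3, which encodes the NF-kB inhibitor A20, Fosl2, a subunit of the AP-1 transcription factor, Crem, a cyclic AMP-responsive transcription factor, and Rgs2, which dampens G protein signals. Odc1, the rate-limiting enzyme of polyamine synthesis, Got1, the cytosolic aspartate aminotransferase, Slc3a2, the heavy chain of an amino acid transporter, and the G protein subunit Gna13 were also there. The other 4 were Ubl3, Tent5a, Tmem64 and Cpm, the last encoding carboxypeptidase M. Of the 12 leading genes that were lower in skin, 6 were GTPases of the GIMAP family, which maintain lymphocyte survival. The others were Itga4, the integrin alpha 4 chain, Izumo1r, which encodes folate receptor 4, the survival factor Bcl2, the actin regulator Evl, Tspan32 and Traf3ip3.

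Tnfaip3, at chr10:19000910-19015657, stood at 1827, 2125, 2236, 2048 and 2492 CPM in skin and 299.9, 203, 264, 251.6 and 158 CPM in spleen. All skin values exceeded all spleen values by a wide gap (log2 fold change 3.19, SE 0.17, adjusted p = 5.89e-23). Fosl2, at chr5:32135801-32157842, was at 404, 325, 417, 502 and 332 CPM in skin and 1.496, 1.26, 3.48, 3.32 and 0.703 CPM in spleen, where it was close to the lowest level that could be counted (log2 fold change 7.59, SE 0.50, adjusted p = 4.08e-19). Crem was at 920.5, 1039, 1066, 1370.1 and 1137 CPM in skin and 45.6, 56.5, 36.1, 64.7 and 53.8 CPM in spleen (log2 fold change 4.43, SE 0.27, adjusted p = 1.24e-20). Odc1 ranged over 654 to 974 CPM in skin and 83.6 to 138 CPM in spleen, Got1 over 823 to 1156 and 66.8 to 108 CPM, and Slc3a2 over 761 to 994 and 196 to 233 CPM. Their log2 fold changes were 2.86, 3.57 and 2.04, and no library of one tissue reached the range of the other. Ubl3, with the smallest adjusted p of the higher genes (4.22e-25), ranged over 699 to 809 CPM in skin and 150.1 to 186 CPM in spleen. Gna13, Tent5a, Tmem64 and Cpm had log2 fold changes of 2.39, 4.001, 2.29 and 2.27.

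**Figure D2:**
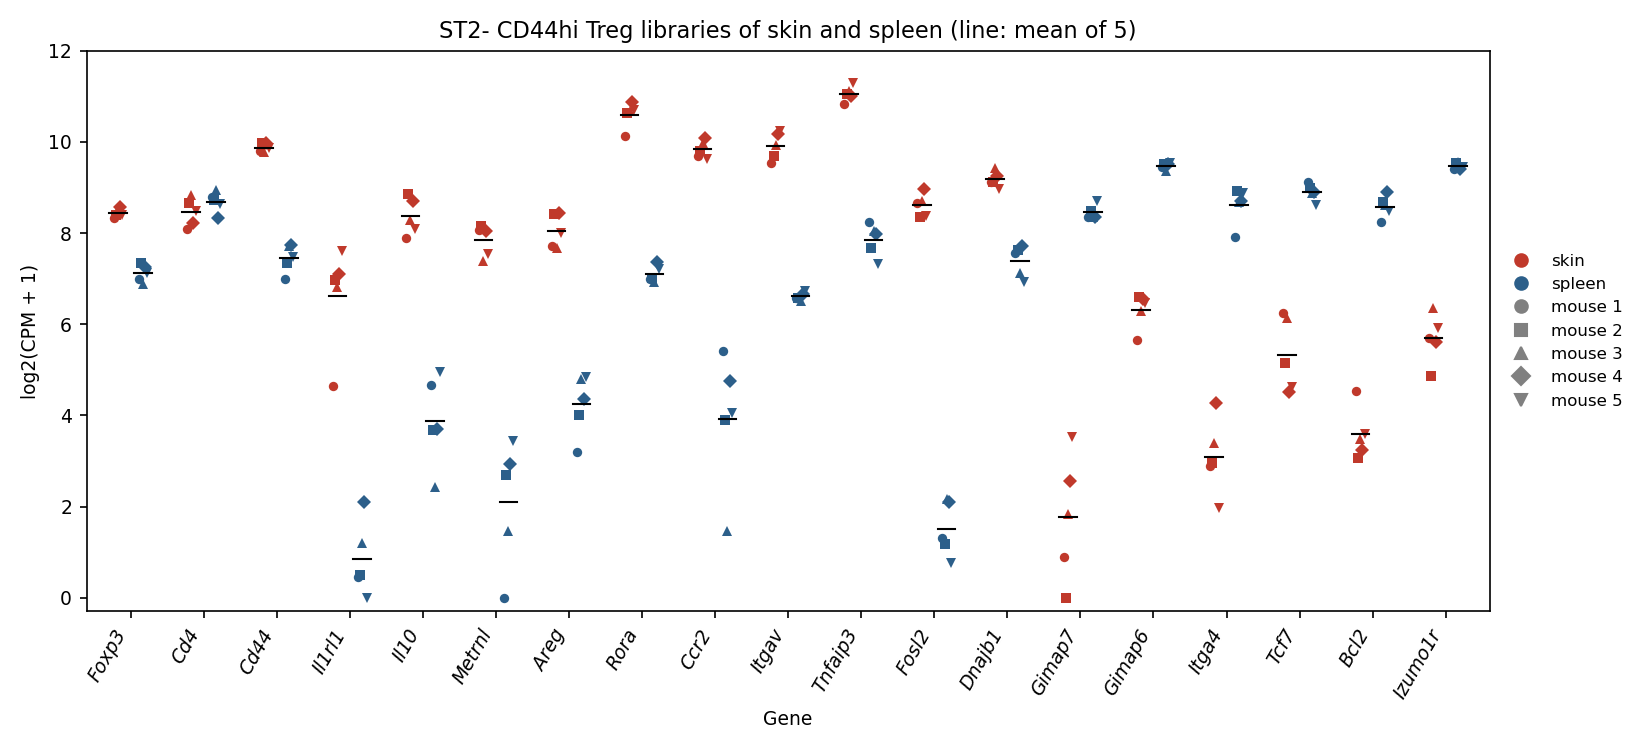
Levels of 19 genes as log2(CPM + 1) in the 5 skin and 5 spleen ST2- CD44hi libraries, with the mouse given by the marker shape and a line at the mean of each tissue. Cd4 overlaps between tissues, Gimap7, Itga4 and Tcf7 are low in all skin libraries, and Il10, Areg, Fosl2 and Ccr2 are high in all of them.

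Related genes were then grouped into 29 lists. The share of a list's tested genes that were higher in skin ranged from 0 of 8 for the GIMAP family to 16 of 19 for transcription factors of tissue Tregs, beside 16.7% of all tested genes. The share that were lower ranged from 0, in lists such as the heat shock and NF-kB genes, to all 8 GIMAP genes, beside 14.1% of all tested genes. The lists are described by these counts and their medians, with no test of a list as a whole.

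**Figure D3:**
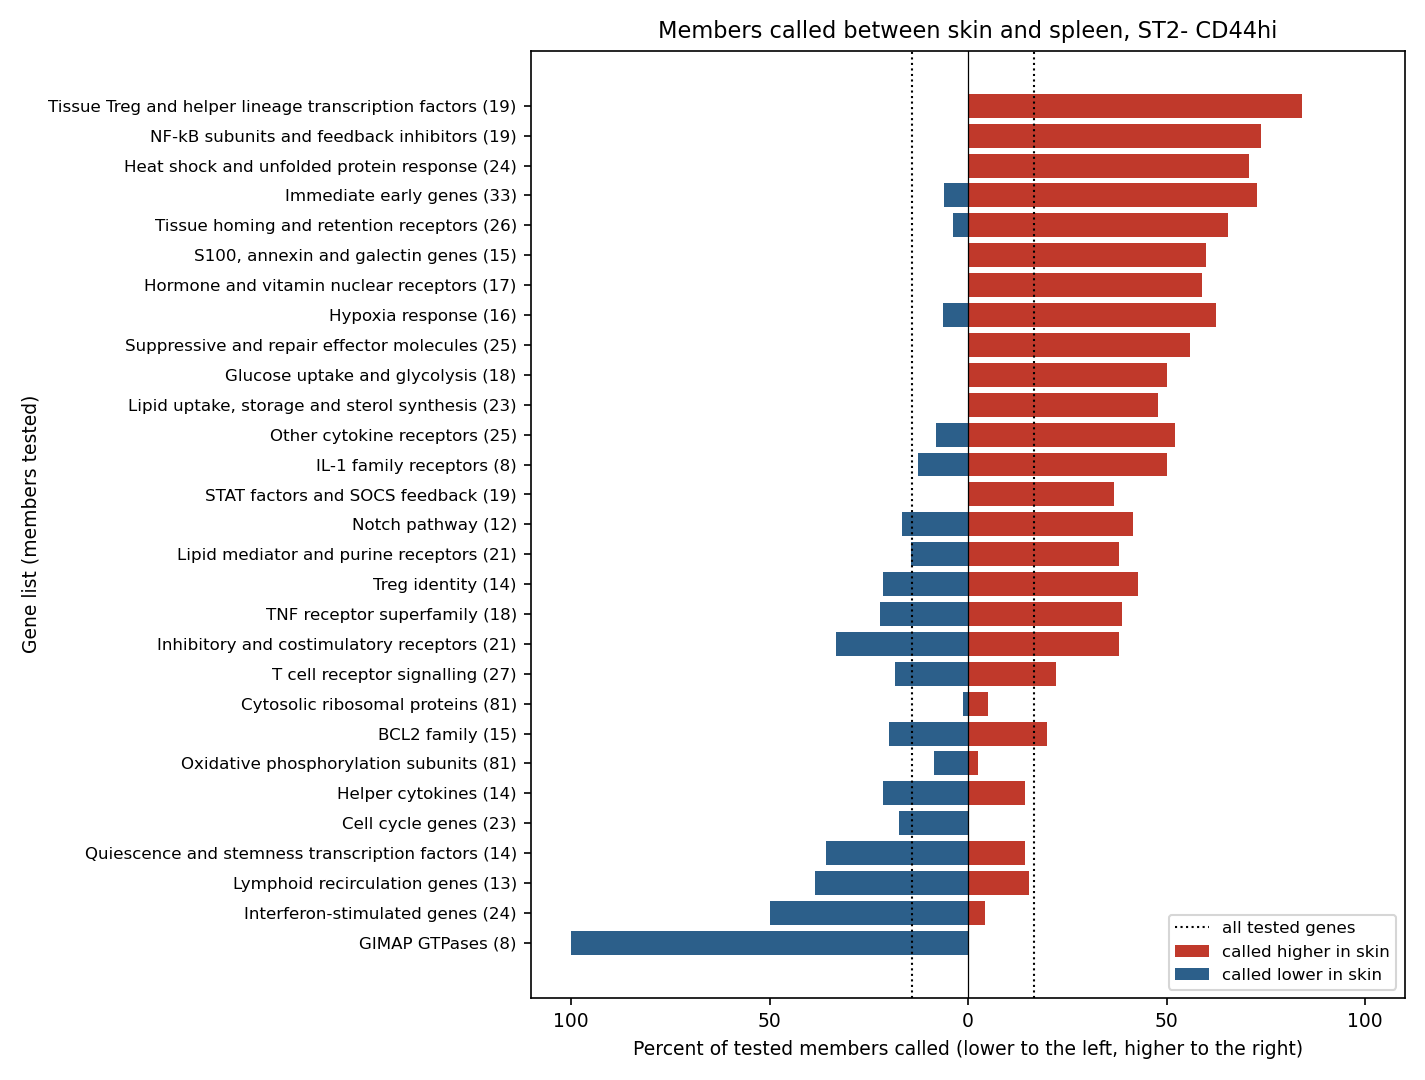
Percentage of the tested genes of 29 lists that were called higher (to the right) or lower (to the left) in skin than in spleen, with dotted lines at 16.7% and 14.1%, the shares over all 13173 tested genes. Transcription factors of tissue Tregs, NF-kB genes and immediate early genes reach furthest to the right, and the GIMAP family reaches furthest to the left.

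Genes that define Tregs did not move together. Of 14 tested, 6 were higher and 3 were lower in skin, with a median log2 fold change of 0.22. Higher with Foxp3 were Ctla4, the inhibitory receptor, at 781 to 1204 CPM in skin and 366 to 482 CPM in spleen (log2 fold change 1.27), and Tnfrsf18, which encodes GITR (log2 fold change 0.81). Capg, an actin-capping protein, was also higher (log2 fold change 0.81). Gpr83, a receptor used to tell Tregs from other CD4+ T cells, had 0, 0, 0, 0 and 0.586 CPM in skin and 238, 193, 263, 282 and 229 CPM in spleen. With 1 count in skin over all 5 libraries against 3035 in spleen, the ratio of spleen over skin was 2050.5 (95% counting interval 368 to 81018). Izumo1r, at chr9:14885814-14903949, was at 51.3, 28.3, 80.4, 47.5 and 59.8 CPM in skin and 674, 747, 757, 678 and 702 CPM in spleen (log2 fold change -3.73, SE 0.23, adjusted p = 1.24e-20). Nrp1, which encodes neuropilin-1 and marks thymus-derived Tregs, was at 20.5 to 66.7 CPM in skin and 410.3 to 579.6 CPM in spleen (log2 fold change -3.47). Thus Foxp3 and Ctla4 were higher, while Gpr83, Izumo1r and Nrp1 were lower, in the same skin libraries.

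Transcription factors of tissue Tregs and of helper T cell lineages were mostly higher in skin: 16 of 19 tested, and 0 lower, with a median log2 fold change of 1.87. Rora, a nuclear receptor found in skin Tregs and innate lymphoid cells, was at 1117, 1591, 1625, 1885 and 1657 CPM in skin and 126, 128, 120.4, 165 and 147 CPM in spleen (log2 fold change 3.52, SE 0.31, adjusted p = 1.67e-14). Gata3, the factor of type 2 immunity that is needed for Treg stability in tissues, was at 281, 361, 341, 368 and 338 CPM in skin and 90.1, 129, 123, 132 and 141 CPM in spleen (log2 fold change 1.46, SE 0.13, adjusted p = 1.31e-13). Every skin library exceeded every spleen library for both genes. Ikzf3, which encodes Aiolos, and Stat3, which carries signals of IL-6 and IL-10, had log2 fold changes of 2.397 and 1.33. Id2, Bhlhe40, Nfil3 and Prdm1, factors of effector differentiation, had log2 fold changes of 2.55, 2.01, 2.46 and 1.87. Batf, which drives effector Treg programmes in many tissues, was not called, at 127 to 299 CPM in skin and 184 to 267 CPM in spleen (log2 fold change 0.15, adjusted p = 0.506). Irf4 and Tbx21, which encodes T-bet, were not called either (adjusted p = 0.573 and 0.162).

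Factors that keep T cells quiescent or stem-like were divided, with 2 of 14 higher and 5 lower (median log2 fold change -0.10). The share higher is near the 16.7% of all tested genes, of which 14.1% were lower. Tcf7, which encodes TCF-1, was at 74.8, 34.4, 68.9, 21.7 and 23.5 CPM in skin and 558, 509, 468, 476 and 393 CPM in spleen (log2 fold change -3.41, SE 0.36, adjusted p = 1.18e-11). Its relative Lef1 was at 13.4 to 38.5 and 215 to 242 CPM (log2 fold change -2.95). Klf3 and Bach2, which restrain effector differentiation, had log2 fold changes of -3.02 and -2.92. Zeb1 was in contrast higher in skin, at 425 to 724 CPM against 96.7 to 126 CPM (log2 fold change 2.38). The other higher gene, Bcl6, was not called without mouse 2 or without mouse 4. Foxo1 and Klf2, central factors of naive T cell trafficking, were not called (log2 fold change 0.14 and -0.18, adjusted p = 0.437 and 0.418).

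Receptors for homing and retention were the list with the highest median, 2.25, with 17 of 26 tested genes higher in skin and 1 lower. Ccr2, the receptor for the chemokine CCL2, was at 827, 896, 1001, 1088 and 792 CPM in skin and 41.9, 13.8, 1.74, 26.1 and 15.5 CPM in spleen (log2 fold change 5.52, SE 0.52, adjusted p = 2.81e-13). Itgav, the integrin alpha V chain that with beta 8 releases active TGF-beta, was at 744, 829.1, 981, 1151 and 1212 CPM in skin and 94.6, 94.6, 90.4, 99.9 and 104.7 CPM in spleen (log2 fold change 3.34, SE 0.32, adjusted p = 3.31e-13). Neither gene overlapped between the tissues. Cxcr4, the receptor for CXCL12, was at 204 to 288 CPM in skin and 10.9 to 41.1 CPM in spleen (log2 fold change 2.96). Cxcr6 and Ccr8, both borne by tissue Tregs, had log2 fold changes of 4.75 and 2.01. Ccr10, the receptor for the keratinocyte chemokine CCL27, was at 47.4, 114, 110.3, 30.1 and 49.2 CPM in skin and 0, 0, 0, 0 and 5.27 CPM in spleen, the highest value in mouse 2 and the lowest in mouse 4 (log2 fold change 5.89, SE 1.24, adjusted p = 1.67e-04). Cd69, which holds lymphocytes in tissue, and Itgae, the integrin chain CD103 that binds E-cadherin of epithelium, were higher too (log2 fold change 1.42 and 3.18). Rgs2 and Rgs1, which blunt G protein signals, had log2 fold changes of 3.69 and 1.03. The lower gene was Itgb1, the integrin beta 1 chain, at 184 to 339.7 CPM against 497 to 702 CPM (log2 fold change -1.18). Cxcr3, the receptor for chemokines that interferon induces, was not called, at 189 to 344 CPM in skin and 320.1 to 372 CPM in spleen (log2 fold change -0.47, adjusted p = 0.374).

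Genes of recirculation through blood and lymphoid organs showed 5 lower and 2 higher of 13 tested (median log2 fold change -0.18). Itga4, at chr2:79255426-79333123, pairs with beta 1 or beta 7 chains in homing to inflamed tissue, gut and bone marrow. It was at 6.41, 6.74, 9.57, 18.2 and 2.93 CPM in skin and 239.7, 486, 409, 414 and 469 CPM in spleen (log2 fold change -5.56, SE 0.33, adjusted p = 2.60e-21). Cxcr5, which guides cells into B cell follicles, had 1 count in skin against 2376 in spleen, a ratio of spleen over skin of 1605 (95% counting interval 288 to 63432). S1pr1, which lets lymphocytes leave tissue, was at 101 to 199 CPM in skin and 348 to 412 CPM in spleen (log2 fold change -1.31). Icam2, an adhesion molecule, was also among the 5 lower genes. The higher genes were Ackr3, with no count in spleen and 0, 63.4, 44.6, 29.4 and 0 CPM in skin, and Gpr183, which was not called without mouse 2 or without the skin libraries of mice 2 and 4. Ccr7, the lymph node homing receptor, was not among them: it was at 855, 632, 679.8, 421 and 405 CPM in skin and 435, 444, 423, 517 and 433 CPM in spleen (log2 fold change 0.41, adjusted p = 0.463).

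Effector molecules of suppression and repair were higher for 14 of 25 tested genes and lower for 0 (median log2 fold change 1.38). The number lower was 1 with DESeq2, with voom, and with the compared groups alone, with or without the mouse as a block. It was also 1 without mouse 3 and without the skin libraries of mice 1 and 3. Il10, the inhibitory cytokine, was at 238, 464, 309.9, 413 and 271 CPM in skin and 24.3, 11.7, 4.35, 12.02 and 29.9 CPM in spleen (log2 fold change 4.34, SE 0.40, adjusted p = 3.81e-13). Areg, which encodes the epithelial growth factor amphiregulin, was at 208, 341, 203, 349 and 257 CPM in skin and 8.23, 15.1, 27.0, 19.5 and 27.8 CPM in spleen (log2 fold change 3.79, SE 0.35, adjusted p = 1.55e-13). Metrnl, a secreted protein known from fat and skin, was at 267, 284, 165, 264 and 185 CPM in skin and 0, 5.44, 1.74, 6.63 and 9.84 CPM in spleen (log2 fold change 5.59, SE 0.54, adjusted p = 5.16e-13). None of the 3 overlapped between the tissues. Fgl2, a secreted suppressor, and the cytotoxic protease gene Gzmb had log2 fold changes of 3.53 and 6.15, with Gzmb at 237, 566, 635, 696 and 397 CPM in skin and 0.374, 0.419, 20.0, 1.66 and 13.002 CPM in spleen. Furin, a protease that matures TGF-beta, was at 59.4 to 171 CPM in skin and 7.05 to 14.2 CPM in spleen. Ebi3, a subunit of IL-35, Nt5e, which encodes the ectoenzyme CD73, and Entpd1, which encodes CD39, were not called (adjusted p = 0.79, 0.918 and 0.857). Penk, the enkephalin precursor, was not called, at 293, 429, 76.5, 363 and 505 CPM in skin and 191, 408, 404, 281 and 216 CPM in spleen (adjusted p = 0.881).

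Helper cytokines were sparse. Of 19 listed, 14 passed the filter on low values, 2 were higher and 3 were lower, with a median log2 fold change of -0.23. Among all tested genes 16.7% were higher and 14.1% lower, so nothing is read from these counts about the list. Cd40lg, the ligand that activates B cells and dendritic cells, was higher, at 155 to 231 CPM in skin and 51.6 to 75.2 CPM in spleen (log2 fold change 1.51, adjusted p = 5.89e-06). Ifng, the interferon gamma gene, was at 82.0, 18.2, 76.5, 79.0 and 170.0 CPM in skin and 2.24, 19.3, 7.39, 9.12 and 9.49 CPM in spleen, overlapping in mouse 2 (log2 fold change 3.16, adjusted p = 0.00814), and it was not called without mouse 5. The lower genes Lta, Tnfsf14 and Tnfsf11 fell to 1 called gene without mouse 3, without mouse 4, without mouse 5 or without the skin libraries of mice 1 and 3. Il5 had no count in any of the 10 libraries, Il4 was at 0 to 1.91 CPM in skin and 4.35 to 8.23 CPM in spleen, and Il17a at 0 to 4.69 CPM in skin and 0 CPM in every spleen library.

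Receptors of the IL-1 family other than ST2 were also different. Of 7 tested, 3 were higher and 1 was lower, with a median log2 fold change of 1.18. The IL-18 receptor chains were both higher, Il18r1 at 141, 341, 435, 486 and 504 CPM in skin and 81.5, 114, 73.0, 132 and 134 CPM in spleen and Il18rap at 151 to 354 and 30.2 to 67.4 CPM (log2 fold change 1.83 and 2.18). Sigirr, a family member that inhibits such signals, was lower, at 76.9 to 192 CPM in skin and 305 to 370.4 CPM in spleen (log2 fold change -1.63). Il1rap, the shared signalling chain that IL-33 also needs, was not called, at 17.5 to 49.1 CPM in skin and 23.6 to 65.4 CPM in spleen (adjusted p = 0.824). Il1r2, the decoy receptor for IL-1, was not called although all skin libraries lay above all spleen libraries, at 269, 385, 294, 505 and 395 and 170.1, 97.1, 263, 155 and 128 CPM (log2 fold change 1.18, adjusted p = 0.0802).

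Among other cytokine receptors 13 of 25 tested were higher and 2 lower (median log2 fold change 0.71), but 6 and 0 when the minimum fold of 1.5 was made part of the test (glmTreat). Ifngr1 was at 882 to 1186 CPM in skin and 290.0 to 423 CPM in spleen (log2 fold change 1.62), while its partner Ifngr2 was not called (adjusted p = 0.0681). Il7r, the receptor for the survival cytokine IL-7, was at 422, 819.6, 691, 999 and 674 CPM in skin and 219, 282, 244, 426 and 291 CPM in spleen (log2 fold change 1.30). Il2ra, which encodes CD25, was at 445 to 893 and 361 to 505 CPM (log2 fold change 0.87). Il4ra and Il9r had log2 fold changes of 1.60 and 2.80. The lower genes were Il27ra and Il15ra (log2 fold change -0.82 and -1.07). Of 19 STAT, JAK and SOCS genes tested, 7 were higher and 0 were lower (median log2 fold change 0.33). The number lower was 1 with DESeq2 or voom and 2 with the compared groups alone, with or without the mouse as a block. Pim1, a kinase induced by STAT5, was at 117 to 133 CPM in skin and 17.6 to 25.8 CPM in spleen (log2 fold change 2.49), and Jak2, Cish and Socs2 had log2 fold changes of 1.96, 1.001 and 1.46. Jak1 and Stat4 were not called (adjusted p = 0.713 and 0.94).

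Receptors of the TNF superfamily were higher for 7 and lower for 4 of 18 tested (median log2 fold change 0.82). Tnfrsf4, which encodes OX40, was at 776 to 1288 CPM in skin and 457 to 629 CPM in spleen (log2 fold change 1.02). Tnfrsf1b, which encodes TNF receptor 2, was higher as well (log2 fold change 1.59). Tnfrsf10b, the receptor for the death ligand TRAIL, was at 103, 119, 129, 91.6 and 135 CPM in skin and 0, 2.09, 5.22, 7.46 and 3.87 CPM in spleen (log2 fold change 4.94, SE 0.68, adjusted p = 2.68e-08). Lower were Tnfrsf26 and Tnfrsf13b, which encodes the BAFF and APRIL receptor TACI (log2 fold change -2.70 and -1.76). Cd27 was not called (log2 fold change 0.22, adjusted p = 0.0924).

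Inhibitory and costimulatory receptors were divided almost evenly, with 8 higher and 7 lower of 21 tested (median log2 fold change -0.13). Havcr2, at chr11:46454935-46481255, encodes the inhibitory receptor TIM-3. It was at 288, 231, 267, 319 and 279 CPM in skin and had no count in any spleen library, which makes it at least 1167-fold higher in skin against a floor of 3 counts over the 5 spleen libraries. Icos, the costimulator of effector Tregs, was at 1476, 2017, 1856, 2241 and 1881 CPM in skin and 337, 383, 457, 366 and 397 CPM in spleen (log2 fold change 2.29, SE 0.15, adjusted p = 9.07e-19). Cd28 and Cd200r1 were also higher (log2 fold change 1.34 and 2.09), and so was Klrg1, a marker of terminal effector cells, at 128, 366, 239.2, 548 and 259 CPM in skin and 28.8, 28.5, 41.7, 24.9 and 124 CPM in spleen (log2 fold change 2.62). Lower were Cd96 and Cd226, which share a ligand with TIGIT (log2 fold change -1.95 and -1.25), and Cd200, the ligand of Cd200r1 (log2 fold change -1.62). Lag3 was lower with 3 counts over the skin libraries against 140 over the spleen libraries, a ratio of spleen over skin of 31.5 (95% counting interval 10.6 to 155). Pdcd1, which encodes PD-1, was not called, at 292 to 444 CPM in skin and 344 to 464 CPM in spleen (adjusted p = 0.821).

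Genes induced within minutes to hours of a stimulus made up 3 further lists that were mostly higher in skin. Of 19 NF-kB subunits and feedback inhibitors, 14 were higher and 0 lower (median log2 fold change 0.93). Rel, which encodes the c-Rel subunit needed for Treg development, was at 481, 576, 582, 937 and 979.7 CPM in skin and 99.1, 117, 117, 116 and 134 CPM in spleen (log2 fold change 2.61, SE 0.21, adjusted p = 1.32e-15). Nfkbiz, Traf1 and Nfkb1 had log2 fold changes of 1.49, 0.86 and 1.25, and Rela, the p65 subunit, was not called (log2 fold change 0.25, adjusted p = 0.16). Of 33 immediate early genes, 24 were higher and 2 lower (median log2 fold change 2.06). Atf3, a stress-induced transcription factor, was at 176, 354, 716, 193 and 127 CPM in skin and had 1 count in spleen, a ratio of skin over spleen of 3777 (95% counting interval 677 to 149250.0). Nr4a3, an orphan nuclear receptor induced by T cell receptor signals, was at 479, 479, 507, 531 and 506 CPM in skin and 27.3, 20.1, 26.5, 7.87 and 8.79 CPM in spleen (log2 fold change 4.79, SE 0.43, adjusted p = 5.41e-14). Klf6 and Dusp5 had log2 fold changes of 2.06 and 3.24.

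The immediate early genes did not all take part. Jun was not called, at 157, 267, 247, 231 and 95.6 CPM in skin and 60.2, 391, 169, 278 and 109.6 CPM in spleen (log2 fold change -0.02, adjusted p = 0.988). Egr1 was not called either (adjusted p = 0.086), and Egr2, a lower gene, lost its call when any one of mice 1, 2, 4 and 5 was left out. Myc, which drives growth, was lower in skin, at 38.5, 75.5, 64.4, 18.9 and 69.2 CPM against 265, 134, 187, 247 and 133 CPM (log2 fold change -1.86, SE 0.30, adjusted p = 1.10e-06). Fos was at 840.1, 1347, 1218, 1310.0 and 1037 CPM in skin and 33.3, 399, 64.8, 274 and 38.0 CPM in spleen, so that the spleen libraries of mice 2 and 4 stood well above the other 3 (log2 fold change 2.83, adjusted p = 1.19e-05). In Jun and Dusp1 the same 2 spleen libraries were also the highest, with Dusp1 at 361, 709, 358, 697 and 373 CPM in spleen and 1293 to 1830.0 CPM in skin.

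Of 24 genes of the heat shock and unfolded protein responses, 17 were higher and 0 lower (median log2 fold change 1.24). Dnajb1, a partner of the chaperone HSP70, was at 555, 557, 684, 613 and 502 CPM in skin and 189, 196, 137, 209.7 and 120.2 CPM in spleen (log2 fold change 1.77, SE 0.22, adjusted p = 1.62e-09). The inducible HSP70 genes Hspa1a and Hspa1b, whose near-identical sequences make the split between them uncertain, were at 232 to 360.0 and 364 to 528 CPM in skin and at 0 to 5.44 and 0 to 23.9 CPM in spleen. Atf4, Dnajb9 and Hsp90aa1 had log2 fold changes of 1.43, 2.74 and 1.39. Hspa5, the chaperone BiP, fell short of the fold change of 1.5 although all its skin libraries lay above the spleen libraries, at 816 to 1048 and 576 to 647 CPM (log2 fold change 0.57). Skin was digested in warm collagenase and spleen was not, so that the tissue and its preparation cannot be told apart in these 3 lists.

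Promoters of 10360 of the tested genes were searched on both strands for 5 short motifs, in windows of 300 bases that run from 250 before to 50 after each RefSeq gene start (GRCm38.p6). The AP-1 motif TGANTCA was found in 6.24% of promoters of genes higher in skin, 5.51% of those of genes lower in skin and 5.20% of all tested promoters. The NF-kB motif, searched as GGGA, any base, TT, any base and CC, was found in 1.90%, 1.10% and 1.43%, and the heat shock motif GAANNTTC in 5.47%, 6.51% and 5.82%. The STAT motif TTCNNNGAA was found in 6.20%, 7.66% and 6.79%, and the interferon motif, searched as GAAA, any 2 bases and GAAA, in 2.76%, 4.93% and 3.26%. The motifs can overlap each other, and a match is a run of letters, not a shown binding site. In the lists above, the list's own motif was found in at least 1 promoter of 8 of 16 NF-kB genes, 8 of 21 heat shock genes and 2 of 27 immediate early genes that had a promoter in the table. These count genes, of which some have several promoters, whereas the percentages count promoters. To show where the matches lie, the 150 bases before the start are printed 5′ to 3′ for the 4 such genes with the smallest adjusted p among those higher in skin, in lower case with the matches in capitals: Rel (chr11:23770970-23771119, minus strand, NF-kB match 92 bases before the start), Zfp36l1 (chr12:80113014-80113163, minus strand, AP-1 match 129 bases before), Csrnp1 (chr9:119983024-119983173, minus strand, AP-1 matches 102 and 14 bases before) and Dnaja1 (chr4:40722318-40722467, plus strand, heat shock match 124 bases before).
Rel: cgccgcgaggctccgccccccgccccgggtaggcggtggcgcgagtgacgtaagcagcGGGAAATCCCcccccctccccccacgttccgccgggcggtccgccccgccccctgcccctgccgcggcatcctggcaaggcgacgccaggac
Zfp36l1: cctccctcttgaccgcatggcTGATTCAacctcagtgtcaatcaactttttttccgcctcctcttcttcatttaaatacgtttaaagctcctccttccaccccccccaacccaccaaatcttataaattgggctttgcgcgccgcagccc
Csrnp1: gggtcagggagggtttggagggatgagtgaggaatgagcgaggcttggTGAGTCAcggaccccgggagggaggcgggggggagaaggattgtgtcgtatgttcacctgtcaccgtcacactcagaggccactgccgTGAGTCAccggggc
Dnaja1: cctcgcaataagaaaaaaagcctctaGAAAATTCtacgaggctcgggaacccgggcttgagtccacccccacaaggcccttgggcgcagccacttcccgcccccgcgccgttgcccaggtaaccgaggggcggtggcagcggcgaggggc

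Zfp36l1 and Csrnp1, an RNA-destabilising protein and a nuclear protein of the immediate early class, were at 208 to 297 and 111 to 200.2 CPM in skin and at 76.6 to 112 and 11.2 to 27.0 CPM in spleen (log2 fold change 1.49 and 3.07). Dnaja1, a partner of HSP70, was at 268 to 344 and 81.9 to 154 CPM (log2 fold change 1.41).

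The GIMAP family, GTPases of the immunity-associated protein type whose genes lie side by side on chromosome 6, was the list in which every gene was lower in skin. All 8 tested genes were called, with 5 skin libraries below 5 spleen libraries in each, and the median log2 fold change was -3.04. Gimap7, at chr6:48718621-48724636, was at 0.855, 0, 2.55, 4.89 and 10.6 CPM in skin and 328, 359, 327, 328 and 413 CPM in spleen (log2 fold change -6.55, SE 0.33, adjusted p = 2.68e-24). Gimap6, at chr6:48701582-48708225, had the smallest adjusted p of all genes, at 49.6, 95.7, 77.8, 93.0 and 86.8 CPM in skin and 696, 731, 653, 736 and 737 CPM in spleen (log2 fold change -3.15, SE 0.12, adjusted p = 2.18e-29). Gimap5, whose loss in mice and rats causes lymphopenia, at chr6:48746197-48754210, was at 7.26, 43.1, 31.9, 18.2 and 23.5 CPM in skin and 277, 314, 312, 283 and 311 CPM in spleen (log2 fold change -3.62, SE 0.21, adjusted p = 1.30e-21). Gimap3 was at 160.4 to 259.6 CPM in skin and 965 to 1065 CPM in spleen (log2 fold change -2.43). Gimap4, Gimap9, Gimap1 and Gimap8 had log2 fold changes of -3.68, -2.80, -2.33 and -2.93. All 8 were lower in all 17 alternative analyses. The genes of the cluster are related in sequence, so reads that match several of them could be split unevenly. The alternatives all start from the same counts, so they cannot address this.

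Genes of the BCL2 family, which set the threshold for apoptosis, were higher for 3 and lower for 3 of 15 tested (median log2 fold change 0.84). With glmTreat 1 was lower. Both shares are near the 16.7% higher and 14.1% lower of all tested genes, so nothing is read from them about the family. Bcl2 was at 22.2, 7.41, 10.2, 8.39 and 11.1 CPM in skin and 302, 408, 389.6, 475 and 358 CPM in spleen (log2 fold change -4.96, SE 0.35, adjusted p = 4.72e-18). Bcl2l1, the related survival gene of BCL-XL, was in contrast at 415, 404, 384, 268 and 432 CPM in skin and 80.0, 65.7, 81.3, 80.8 and 45.0 CPM in spleen (log2 fold change 2.43, SE 0.39, adjusted p = 1.29e-06). Pmaip1, the proapoptotic gene of NOXA, was higher (log2 fold change 2.90), and so was Bcl2a1d, one of several near-identical copies (log2 fold change 1.30). Mcl1, on which Tregs depend for survival, was not called, at 377 to 609 CPM in skin and 402 to 449 CPM in spleen (log2 fold change 0.07, adjusted p = 0.656).

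Components of T cell receptor signalling were higher for 6 and lower for 5 of 27 tested (median log2 fold change -0.16). These shares are near the 16.7% and 14.1% of all tested genes, so nothing is read from them about the list. The lower genes numbered 2 with glmTreat and 3 without mouse 3 or without the skin libraries of mice 2 and 4. Grap2, an adaptor downstream of the receptor, was higher, at 144 to 223 CPM in skin and 35.2 to 53.1 CPM in spleen (log2 fold change 1.85). Prkcq, which encodes protein kinase C theta, was lower, at 111 to 223 CPM in skin and 450.2 to 548 CPM in spleen (log2 fold change -1.58), and so was Dgka, a brake on the pathway (log2 fold change -0.88). Lck, Lat and Cd3g were not called (adjusted p = 0.12, 0.769 and 0.517).

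In the Notch pathway 5 genes were higher and 2 lower of 12 tested (median log2 fold change 1.65). Dtx1, at chr5:120680202-120711927, encodes the Notch-induced ubiquitin ligase Deltex-1. It was at 238, 125, 173, 82.1 and 168 CPM in spleen and had no count in any skin library, at least 453-fold lower in skin against a floor of 3 counts over the 5 skin libraries. Rbpj, the transcription factor of the pathway, was higher, at 65.7 to 117 CPM in skin and 22.1 to 31.5 CPM in spleen (log2 fold change 1.75). The ligand gene Jag1, which supports hair follicle stem cells when Tregs make it, was at 8.55, 47.2, 33.8, 14.7 and 44.0 CPM in skin and 3.37, 0, 3.91, 1.24 and 0 CPM in spleen (log2 fold change 4.08, adjusted p = 0.00538). The other 3 higher genes, Notch3, Hes1 and Dll4, had most of their counts in 1 or 2 skin libraries: Dll4 was at 0, 33.7, 0, 0 and 0 CPM, Notch3 at 0, 32.4, 1.28, 2.10 and 1.76 CPM and Hes1 at 14.1, 24.9, 3.83, 1.40 and 0 CPM, all with no count in spleen. Mouse 2 held the highest value of each, as it did of the endothelial marker sum, and without mouse 2 or without the skin libraries of mice 2 and 4 the number of higher genes was 3, and it was 2 where a gene had to reach 1 CPM in 50% of libraries. Besides Dtx1, genes with no count in skin and at least 10 CPM in spleen, picked out after their values were seen, included Art2b, an ADP-ribosyltransferase of T cells, at 205 to 284 CPM, and Treml2 at 37.8 to 64.7 CPM.

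Glycolysis genes that were called were higher in skin in the first fit. Of 18 genes of glucose uptake and glycolysis, 9 were higher and 0 lower (median log2 fold change 0.66), or 5 higher with glmTreat. The number lower was 1 without mouse 1 and without the skin libraries of mice 1 and 3. It was also 1 with the mouse as a block and the compared groups alone. Gapdh was at 111, 76.2, 83.5, 62.9 and 103 CPM in skin and 29.2, 33.5, 36.1, 24.0 and 22.8 CPM in spleen (log2 fold change 1.59, SE 0.24, adjusted p = 4.39e-07). Aldoa was at 594 to 829.7 CPM in skin and 349 to 402 CPM in spleen (log2 fold change 0.93), and the lactate exporter gene Slc16a3 had a log2 fold change of 2.65. Hk1 and Slc2a3 were not called (adjusted p = 0.129 and 0.404). In the list of hypoxia genes, 10 of 16 were higher and 1 lower, with a median log2 fold change of 1.84, or 1.65 with genes at 0 in spleen set to their lower bound. Ero1l, an oxidase of protein folding, was at 275, 458, 338, 362 and 447 CPM in skin and 42.3, 52.7, 39.6, 54.3 and 52.7 CPM in spleen (log2 fold change 2.96, SE 0.22, adjusted p = 2.96e-17). Mxi1, an antagonist of MYC, and Ndrg1 had log2 fold changes of 3.49 and 4.17, and Hif1a was at 531 to 686 CPM in skin and 281 to 423 CPM in spleen (log2 fold change 0.88). The lower gene was Pdk1, which keeps pyruvate out of mitochondria (log2 fold change -1.48).

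Lipid genes were higher for 11 and lower for 0 of 23 tested (median log2 fold change 0.91), or for 7 when a gene had to reach 1 CPM in 50% of libraries. The enzymes of the last step of triglyceride synthesis led the list. Dgat1 was at 682, 642, 829.1, 733 and 791 CPM in skin and 91.6, 77.4, 84.3, 59.3 and 81.5 CPM in spleen (log2 fold change 3.22, SE 0.26, adjusted p = 1.74e-15), and Dgat2 was at 437, 563, 332, 531 and 535 CPM in skin and 19.8, 4.19, 5.22, 7.05 and 10.5 CPM in spleen (log2 fold change 5.65, SE 0.78, adjusted p = 2.98e-08). Hmgcs1, an early enzyme of sterol synthesis, had a log2 fold change of 1.65. Fasn, the fatty acid synthase, was not called (adjusted p = 0.645). Cd36 and Fabp4, for fatty acid uptake and transport, were uneven, with Cd36 at 0, 428, 4.46, 6.99 and 0 CPM and Fabp4 at 0, 264, 8.29, 31.5 and 2.35 CPM in skin, both highest in mouse 2.

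Nuclear receptors for hormones and vitamins were higher for 10 and lower for 0 of 17 tested (median log2 fold change 1.90). Nr3c1, which encodes the glucocorticoid receptor, was at 1109, 1362, 1244, 1470.1 and 1350.2 CPM in skin and 163, 192, 160.4, 183 and 249.5 CPM in spleen (log2 fold change 2.78, SE 0.19, adjusted p = 2.12e-18). Rara, the retinoic acid receptor alpha, was at 179 to 229 CPM in skin and 25.1 to 53.8 CPM in spleen (log2 fold change 2.24), and the clock repressor gene Nr1d2 had a log2 fold change of 2.48. Ahr, the receptor for aryl hydrocarbons, was higher (log2 fold change 1.90). Vdr, the vitamin D receptor gene, was not called, at 20.1, 0.674, 0.638, 2.80 and 28.1 CPM in skin and 7.85, 4.60, 1.74, 0 and 9.84 CPM in spleen (adjusted p = 0.553).

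Of 15 S100, annexin and galectin genes, 9 were higher and 0 lower (median log2 fold change 0.88). The number lower was 1 with the compared groups alone, with or without the mouse as a block. Anxa1, which encodes the glucocorticoid-induced protein annexin A1, was at 183, 384, 288, 336 and 266 CPM in skin and 0, 4.60, 0, 7.87 and 1.05 CPM in spleen (log2 fold change 6.75, SE 0.63, adjusted p = 2.18e-13). Lgals1 and Lgals3 had log2 fold changes of 1.38 and 3.26. Receptors for lipid mediators and purines were higher for 8 and lower for 3 of 21 tested (median log2 fold change 0.44). P2rx7, the ATP-gated channel that kills T cells which sense extracellular nucleotides, was at 0, 2.02, 8.29, 0 and 0.586 CPM in skin and 121, 174, 181, 135 and 202 CPM in spleen (log2 fold change -6.27, SE 0.61, adjusted p = 7.29e-13). P2ry10, a receptor for lysophosphatidylserine, and Ltb4r1, the leukotriene B4 receptor, were higher (log2 fold change 2.21 and 5.82). Ptger2, a receptor for prostaglandin E2, was lower (log2 fold change -2.01), whereas Ptger4, for the same ligand, was not called (adjusted p = 0.191).

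Of 23 cell cycle genes tested, 0 were higher and 4, all of DNA replication or its nucleotides, were lower (median log2 fold change -0.90). Over all tested genes 16.7% were higher and 14.1% lower. The number lower was 2 without mouse 3, 1 without mouse 4 or without mouse 5, 0 with glmTreat and 7 with the compared groups alone. In ST2+ cells of the same tissues 2 were higher and 0 lower, with a median of 0.36. Mki67, the proliferation marker, was at 59.8, 163, 40.8, 76.9 and 32.8 CPM in skin and 99.1, 28.9, 56.1, 78.7 and 33.0 CPM in spleen (log2 fold change 0.33, adjusted p = 0.701). Top2a was not called either (adjusted p = 0.587).

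Interferon-stimulated genes were mostly on the lower side, with 12 of 24 lower and 1 higher in skin (median log2 fold change -1.11). Irf9, a subunit of the factor that carries type I interferon signals, was at 104.7, 126, 180.5, 159 and 142 CPM in skin and 377, 312, 344, 342 and 359.5 CPM in spleen (log2 fold change -1.29, SE 0.22, adjusted p = 3.68e-06). Ifi47, a GTPase induced by interferon gamma, was at 136 to 217 CPM in skin and 391 to 437 CPM in spleen (log2 fold change -1.20). Usp18, which restrains interferon signalling, was at 0, 6.07, 1.28, 44.7 and 1.17 CPM in skin and 83.4, 182, 63.0, 203 and 136 CPM in spleen, highest in mice 2 and 4 in the spleen and in mouse 4 in the skin (log2 fold change -3.71, SE 0.77, adjusted p = 1.09e-04). Without the skin libraries of mice 1 and 3 the number of lower genes was 7. The higher gene was Ly6a, which encodes Sca-1 (log2 fold change 1.33). Isg15 and Rsad2 were not called (adjusted p = 0.19 and 0.965).

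Genes of basic cell machinery served as a contrast. Of 81 cytosolic ribosomal protein genes, 4 were higher and 1 lower, and of 81 subunits of oxidative phosphorylation, 2 were higher and 7 lower, with medians of 0.26 and -0.07. Without mouse 4 the higher ribosomal genes numbered 2, and without mouse 2 the higher oxidative phosphorylation genes numbered 0, with a range of 0 to 3 over the fits that leave out 1 mouse. With glmTreat 0 ribosomal genes were higher and 2 oxidative phosphorylation genes were lower. Both lists thus had smaller shares called than the 16.7% and 14.1% of all tested genes. Without the fold limit this did not hold throughout. All 5 skin libraries lay above all 5 spleen libraries in 14 of the 81 ribosomal genes and below them in 1. For oxidative phosphorylation these numbers were 7 and 14 of 81, beside 13.7% above and 13.6% below over all tested genes.

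Some transcripts were concentrated in 1 skin library. The 5 genes with the largest range among skin libraries were Acta2, Myl9, Fbln5, Sparcl1 and Cd36, which are known from smooth muscle, pericytes, elastic fibres and vessels. Sparcl1 was at 24.8, 580.3, 39.5, 0 and 4.10 CPM in skin, Acta2 at 2.56, 371, 0, 1.40 and 2.93 CPM and Fbln5 at 0, 350.5, 16.6, 2.80 and 0.586 CPM. The skin library of mouse 2 held 280 CPM of Myl9 and 428 CPM of Cd36. In each of the 5 genes the high value was that of mouse 2, whose endothelial marker sum was also the highest. Acta2, Cd36, Fbln5 and Myl9 were no longer called without mouse 2.

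The place of skin among 6 tissues was described with ST2- CD44hi Tregs of blood, lungs, VAT and colon, which share no library with the 10 but come from the same mice. These levels are given without a test, as the genes were chosen for their difference between skin and spleen. Some of the blood and VAT libraries were made from fewer sorted cells than the skin and spleen libraries. Skin had the highest mean of the 6 tissues in 1702 of the 2202 higher genes and the lowest mean in 1706 of the 1863 lower genes, or 77.3% and 91.6%, beside 27.0% and 27.6% of all tested genes. Genes chosen as higher or lower in skin than in spleen favour a skin extreme, so nothing is read from these shares. In 400 of the higher genes all 5 skin libraries lay above all libraries of the other 5 tissues, and in 208 of the lower genes they lay below all of them, whereas over all tested genes the numbers were 420 (3.19%) and 218 (1.65%). Where skin was set aside, colon had the highest mean in 1145 of the higher genes and the lowest mean in 643 of the lower genes, as it had in 3777 and 2339 of all 13173 tested genes. The list of GIMAP genes stood at the extreme in skin in all 8 genes, with every skin library below every library of the other tissues. Skin libraries stood beyond all others in 9 of the 17 higher heat shock genes, 2 of the 24 higher immediate early genes and 5 of the 14 higher NF-kB genes.

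Gimap7 averaged 316 ± 31.2 in blood, 351 ± 37.3 in spleen, 309 ± 38.7 in lungs, 379 ± 71.2 in visceral adipose tissue, 313 ± 66.0 in colon and 3.77 ± 4.23 in skin CPM (SD, n = 5 in all). It was thus level in 5 tissues and nearly absent in skin. Itga4 averaged 743 ± 148 in blood, 404 ± 97.6 in spleen, 669 ± 93.8 in lungs, 552 ± 83.4 in visceral adipose tissue, 380.3 ± 117 in colon and 8.76 ± 5.76 in skin CPM. Dgat2 averaged 5.93 ± 9.07 in blood, 9.36 ± 6.33 in spleen, 8.83 ± 4.96 in lungs, 26.6 ± 24.0 in visceral adipose tissue, 17.4 ± 11.2 in colon and 479.9 ± 95.3 in skin CPM, with skin far above the next tissue, VAT. Tnfaip3 averaged 796 ± 151 in blood, 235 ± 55.3 in spleen, 2057 ± 247 in lungs, 1782 ± 303 in visceral adipose tissue, 2309 ± 301 in colon and 2146 ± 245 in skin CPM, so that skin was within the range of lungs, VAT and colon and only blood and spleen were lower. Fos averaged 144 ± 58.4 in blood, 162 ± 166 in spleen, 649.5 ± 131 in lungs, 854 ± 333 in visceral adipose tissue, 1349.5 ± 194 in colon and 1150.4 ± 211 in skin CPM and was higher in the 4 digested tissues than in blood and spleen, with skin below colon. Hspa1a averaged 0.195 ± 0.436 in blood, 1.87 ± 2.62 in spleen, 6.64 ± 7.11 in lungs, 10.1 ± 11.7 in visceral adipose tissue, 26.9 ± 24.8 in colon and 302 ± 48.0 in skin CPM, and skin stood apart from the other digested tissues. Lungs, VAT and colon were digested with the same enzyme at a lower concentration and for a shorter time than skin, and the part of the preparation was not tested.

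**Figure D4:**
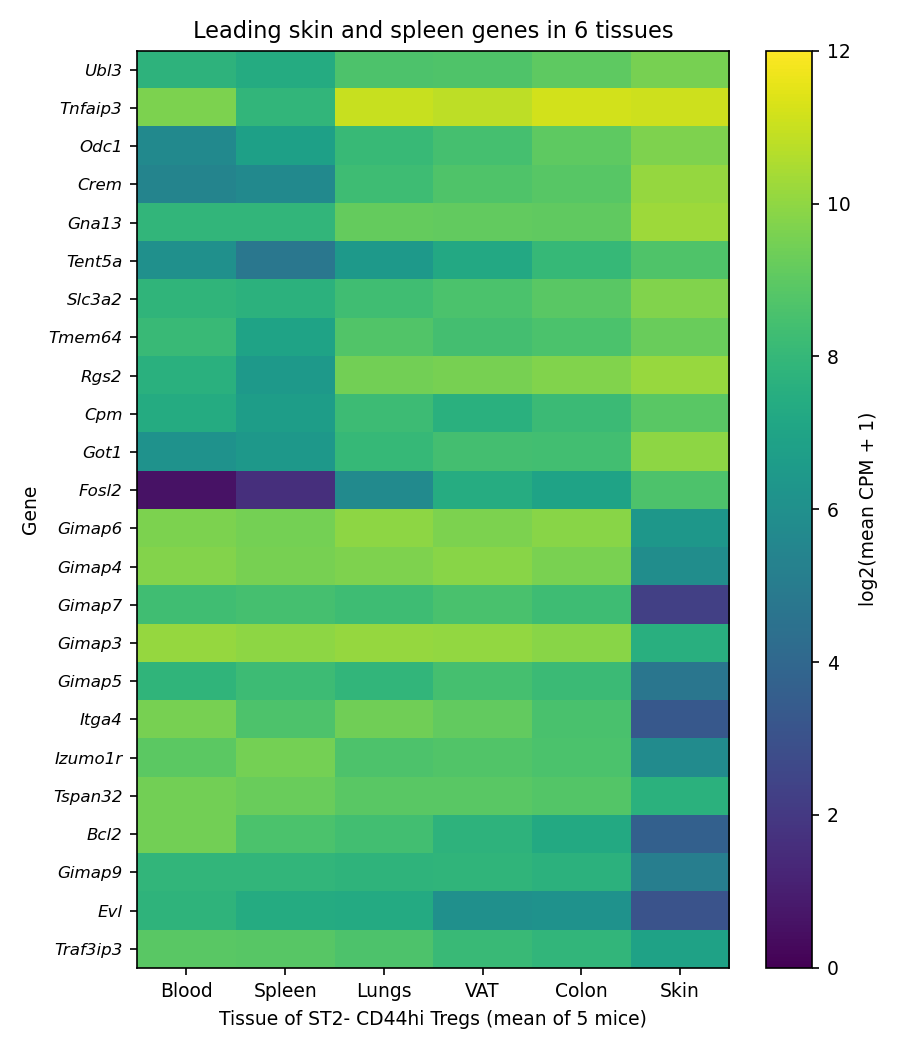
Heat map of log2(mean CPM + 1) of the 24 leading genes, 12 higher and 12 lower in skin than in spleen, in ST2- CD44hi Tregs of 6 tissues, each the mean of its libraries. The genes were chosen for their difference between skin and spleen. The 12 lower genes have their lowest level in skin. Skin has the highest mean in 11 of the 12 higher genes, all but Tnfaip3, which is also high in lungs and VAT and highest in colon. In 10 of the 12 higher genes every skin library lies above every library of the other tissues.

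The same contrast of skin with spleen was made in ST2+ CD44hi Tregs of the same mice, in 10 other libraries. There 1899 genes (14.4%) were higher and 1928 (14.6%) were lower in skin. Of the 2202 genes higher in ST2- cells, 1433 were higher in ST2+ cells too, which is 65.1% of the ST2- list and 75.5% of the ST2+ list. Of the 1863 genes lower in ST2- cells, 1266 were lower in ST2+ cells, 68.0% of the ST2- list and 65.7% of the ST2+ list. In 2107 of the 2202 and 1830 of the 1863 genes the ST2+ fold change had the same sign, with ST2+ medians of 1.48 and -1.20. Only 4 genes were called in opposite directions, Hacd4, Klrb1c, Mef2b and Tldc2, and for none of these did the test of the difference pass (adjusted p = 0.197 to 0.266). Among the lists, all 8 GIMAP genes were lower in ST2+ cells, 17 heat shock genes and 24 immediate early genes were higher, and 16 NF-kB genes were higher. Transcription factors of tissue Tregs were higher in 11 of 19 and homing receptors in 15 of 26. The 2 contrasts share the mice and the skin and spleen preparations.

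A test of the difference between the 2 contrasts, the interaction of tissue and ST2, called 3 genes, 0.0228% of those tested, while 791 had an unadjusted p below 0.05. With the mouse as a block in the same fit the number was 6, which included these 3, and it was 38 with the block and the compared groups alone, 60 with DESeq2 and 36 with voom. Il1rl1 differed more between the tissues in ST2- than in ST2+ cells: the ST2- log2 fold change was 6.75, the ST2+ log2 fold change was 2.41 (SE 0.39, adjusted p = 1.16e-06), and the difference was 4.34 (SE 0.78, adjusted p = 0.00338). This is the gene of the receptor that the sort gated on, and its call was lost without mouse 3 and without mouse 5. Cxcr3, at chrX:101731535-101734269, was at 249.1 ± 60.3 CPM in skin and 344 ± 20.3 CPM in spleen of ST2- cells, and at 18.6 ± 16.1 and 317 ± 23.7 CPM in ST2+ cells (SD, n = 5 each). Its log2 fold change in ST2+ cells was -4.07 (SE 0.48, adjusted p = 3.46e-10), and the difference was 3.60 (SE 0.61, adjusted p = 0.00112). Gimap4, at chr6:48684549-48692060, was at 41.5, 47.9, 87.4, 58.0 and 55.7 CPM in ST2- cells of skin and 712, 768, 765, 724 and 736 CPM in those of spleen. In ST2+ cells it averaged 15.6 ± 7.35 CPM in skin and 758 ± 62.7 CPM in spleen, a log2 fold change of -5.62 (SE 0.20, adjusted p = 5.82e-32). Gimap4 was thus lower in skin in both populations, and less so in ST2- cells (difference 1.94, SE 0.25, adjusted p = 1.08e-06), although voom did not call the difference (adjusted p = 0.159).

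**Figure D5:**
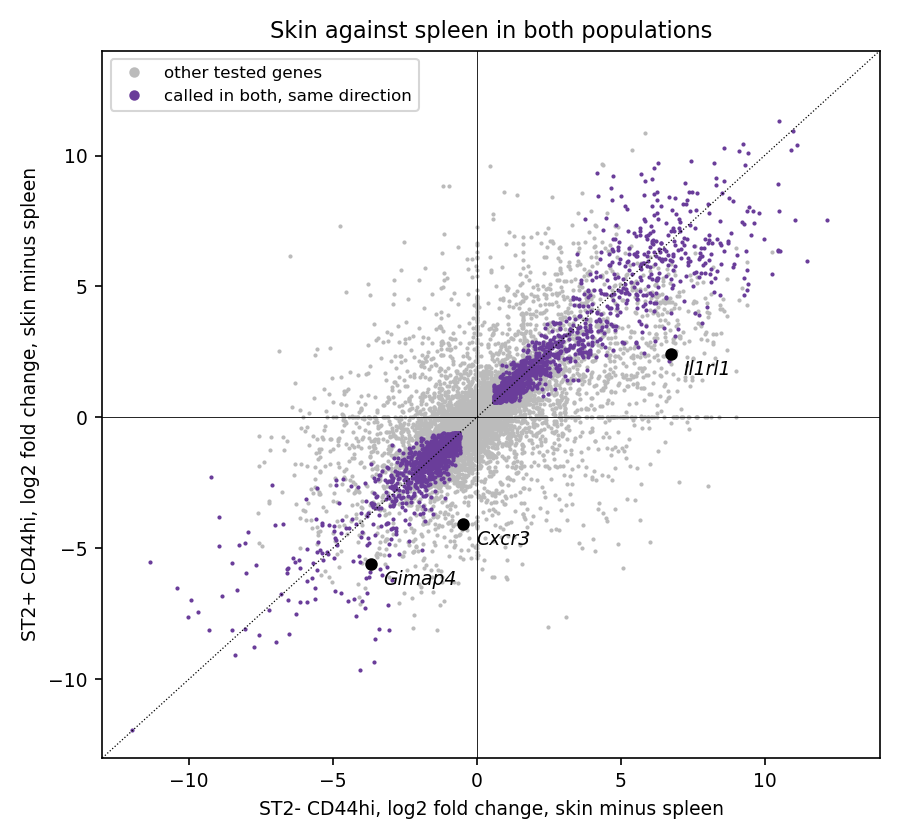
Log2 fold change of skin over spleen in ST2- CD44hi Tregs (x axis) and in ST2+ CD44hi Tregs (y axis) for the tested genes, with genes called in the interaction named. Genes called in both populations in the same direction (purple) lie along the diagonal, and Il1rl1, Cxcr3 and Gimap4 lie off it.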

How the data were processed

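The deposited table held counts of reads per gene for 70 libraries, with no column left unused. Per the methods and labels, the authors made the libraries with SMART-Seq v4 and NexteraXT, aligned single reads to GRCm38 with STAR and counted them with HTSeq 0.4.1, without unique molecular identifiers, so that counts are not independent molecules and intervals and floors cover counting error only. The kit does not mark strand, so reads of a gene and of an overlapping or antisense gene cannot be told apart, and near-identical genes are uncertain.

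Counts were used as deposited. Of 53465 gene identifiers, 53274 were found in the GENCODE M21 annotation (GRCm38), which gave symbols, positions and 21865 protein-coding genes. The 67 libraries above 1000000 counts, in 14 groups, were fitted with 1 term a group by the quasi-likelihood test of edgeR 4.0.16 (R 4.3.3) after TMM scaling over all genes. Tests covered the 13173 protein-coding genes that reached 1 CPM in 10% of these libraries, and the Benjamini-Hochberg adjustment was made over these. CPM values use the same TMM factors, and fitted fold changes are edgeR's. For genes with no count in 1 tissue, a floor of 3 counts over its 5 libraries gave the bound. The authors used voom with quality weights, which was run as an alternative with limma 3.58.1, beside DESeq2 1.42.0, other filters, another scaling, a fold threshold within the test, a mouse block, and fits without each mouse.

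Library totals were 1545763 to 2656728 counts in the 10 libraries. No pair of libraries of the same tissue agreed within sampling noise, so each counted as 1 replicate. Libraries with the same number came from the same mouse, so the numbers pair skin with spleen. Correlations of the deviations of the same mouse over 6441 genes were 0.157, -0.0441, 0.00353, 0.159 and 0.0407. On simulated counts for skin versus spleen with 13173 genes, 31 of 100 genes changed 2-fold and 69 of 100 changed 4-fold were called, with 4 false calls. Only 200 genes were changed there, and each gene had 1 base level in all groups. Far more genes were called in the data, so these shares do not measure the recovery in the real comparison.

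The members and gene lists were chosen with earlier results of these data known. Genes were named by a rule: the 12 higher and 12 lower called genes of smallest adjusted p without overlap between tissues, up to 4 called genes per direction in each list with members that were not called where the list is described by them, the genes behind the sort, the genes called in the interaction, and the 5 genes with the largest range among skin libraries. Called genes outside it, such as Gzmb, Cxcr6, Ccr10, Fos, Hspa1a, Prdm1, Klrg1 and Art2b, were chosen after their values were seen. Some genes of the lists are not reported here. Promoter sequences are from RefSeq (GRCm38.p6).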

Additional observations from a re-analysis of the deposited data

Results flagged for a closer look

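In groups of 5 libraries, a library is named here where the highest or lowest value lay apart from the rest, with a gap to its nearest neighbour of more than 0.71 of the whole range. This was tested in 458 groups of values, of which 48 met it. The limit of 0.71 gives about 1 in 20 by chance only where values are normally distributed. It was applied to CPM, which need not be, and some groups met it on 1 count. How many would meet it by chance is therefore not known, and nothing is read from 48 of 458. The values share libraries and are not independent of each other.

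The skin library of mouse 2 stood apart most often, 11 times. It was high in Sparcl1 (580.4 CPM), Cd36 (428 CPM), Acta2 (371 CPM), Fbln5 (350.5 CPM), Myl9 (279.7 CPM), Fabp4 (264 CPM), Dll4 (33.7 CPM) and Notch3 (32.4 CPM), genes known from vessels, smooth muscle and fat. The summed endothelial markers (406 CPM), the summed mast cell markers (89.6 CPM) and the survival gene Mcl1 (609 CPM) were high in it as well. The part of other cell types in these values was not tested.

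The skin library of mouse 1 stood apart 7 times. Its summed gamma-delta T cell markers were high (326 CPM), Batf was low (127 CPM), and Bcl2 (22.2 CPM), Klf3 (64.1 CPM), Sigirr (192 CPM), Grap2 (223 CPM) and Hk1 (282 CPM) were high.

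In the skin library of mouse 3, Foxo1 (422 CPM), Gimap3 (259.6 CPM), P2rx7 (8.29 CPM) and the erythroid marker sum (21.7 CPM) were high. In that of mouse 4, Usp18 (44.7 CPM), Socs2 (157 CPM), the melanocyte marker sum (83.9 CPM) and Cxcr5 (0.699 CPM) were high and Stat3 was low (1043 CPM). Gpr83 stood out in mouse 5 (0.586 CPM). The values for Cxcr5 and Gpr83 rest on 1 count each.

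Among the spleen libraries, mouse 5 was high in Klrg1 (124 CPM), Cxcr6 (88.2 CPM), Il1rap (65.4 CPM) and Ccr10 (5.27 CPM). Mouse 4 was high in Ccr7 (517 CPM), Il2ra (505 CPM), Slc3a2 (233 CPM), the gamma-delta T cell marker sum (15.7 CPM) and Atf3 (0.414 CPM, 1 count), and low in the CD8 T and NK cell marker sum (18.2 CPM). Mouse 1 was high in Dusp5 (77.8 CPM), Ahr (49.0 CPM) and Ndrg1 (47.5 CPM) and low in the Treg marker sum (2693 CPM). Mouse 2 was high in Cd3g (488 CPM) and Fabp4 (0.419 CPM, 1 count). In mouse 3, Capg was high (437 CPM) and Gimap8 was low (149.6 CPM). In ST2- cells of other tissues, Itga4 was high in colon of mouse 5 (583 CPM) and Hspa1a in blood of mouse 3 (0.975 CPM).

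The tissue contrast differed between ST2- and ST2+ cells by the interaction test of edgeR in Il1rl1, Cxcr3 and Gimap4, with differences in log2 fold change of 4.34, 3.60 and 1.94. Cxcr3 was called in all 17 alternatives (3.28 to 4.30), with adjusted p = 0.00112 in the first fit. Il1rl1 was called in 15 of 17 (3.74 to 5.28), with an adjusted p of up to 0.125 in the others. Gimap4 was called in 16 of 17 (1.51 to 2.22), but not by voom (adjusted p = 0.159).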

How the results depend on the processing

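The 17 alternatives changed few of the calls described. The number of genes called between skin and spleen ST2- cells, 4065, ranged from 3403 to 5119 over the alternatives in test, scaling, filter, block and groups fitted, with 1 exception. A minimum fold of 1.5 within the test itself (glmTreat) called 2454 genes in ST2- cells and 2192 in ST2+ cells (3827 without it). With 1 mouse left out the numbers were 3107 to 3653 in ST2- and 2977 to 3460 in ST2+ cells. None of the genes called in both an alternative and the first fit changed direction. A filter of 1 CPM in 50% of libraries moved the median log2 fold change of all genes to -0.12. The 3 genes of the interaction numbered 60 with DESeq2, 36 with voom, 19 with the compared groups alone, 5 without the skin libraries of mice 2 and 4, and 3 to 5 with 1 mouse left out.

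With the mouse as a block, in keeping with the pairing, 4061 genes were called in ST2- cells, 3823 in ST2+ cells and 6 in the interaction, and with the block and the compared groups alone the numbers were 3792, 3393 and 38. The block within the 14 groups changed no other call of the named genes. With the block and the compared groups alone, Cox4i2, Il1r1, Il2rg, Notch3, Rpl27, Rps13 and Rps27l lost their call. Sign flips within mice gave 0.0625 for totals and for the mitochondrial and abundant-gene shares.

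Of 2896 values of 171 named genes under the alternatives, 2772 kept their direction and call, 123 lost the call and 1 reversed: Myl9, with a log2 fold change of -1.86 without the skin libraries of mice 2 and 4. The changes fell on 39 genes. The difference in detected genes, skin minus spleen, was 20.4 and ranged from -230.75 to 200.25 with 1 mouse left out. The causes of these changes were not tested. With 220 cells in each of the 10 libraries and about 2.2 counts per CPM, levels of a few CPM rest on single counts. The 5 mice of 1 sex limit the comparison, and sorted numbers do not show which cells gave which transcripts.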

Other observations

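Within the pairs of skin and spleen libraries from the same mouse, 1557 of the 2202 higher genes were higher in skin in each of the 5 mice, and 1752 of the 1863 lower genes were lower in each of them.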
